A study of Mus musculus with 12 samples.

Results

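Vitamin C (ascorbate) is made in mouse liver and carried across membranes by a pair of sodium-coupled transporters, and 5 genes of this pathway were described here among the 46078 genes counted in mouse liver: Akr1a1, Rgn and Gulo for synthesis, and Slc23a1 and Slc23a2 for transport. The 5 were picked by name, and Slc23a2 was picked because its RNA was lower than in Sham-Ad lib liver after both weight-loss treatments. Its difference from Sham-Ad lib in either treatment group is therefore given as a description with no test. All 12 livers came from 21-week-old C57BL/6 mice with diet-induced obesity, which the study's methods give as C57BL/6J males fed a high fat diet. The Sham-Ad lib group (4 livers, animals 3F, 4F, 6F and 10F) had sham surgery and then ate freely. The Sham-WM group (4 livers, animals 2F, 9F, 15F and 16F) had sham surgery and was then given less food, so that its weight followed that of the operated mice. The VSG group (4 livers, animals 1F, 8F, 11F and 18F) had vertical sleeve gastrectomy, in which most of the stomach is cut away. Each library was 1 whole-liver RNA sample from 1 mouse, and all 3 groups share the diet and an operation, which in both sham groups left the stomach whole.

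Mice make ascorbate from glucose by way of glucuronate, mostly in hepatocytes, whereas humans have lost the last enzyme and must eat the vitamin. Akr1a1 reduces glucuronate to gulonate, Rgn closes gulonate into its lactone, and Gulo oxidises the lactone to the compound that becomes ascorbate. Slc23a1 (SVCT1) is the transporter of absorptive epithelia and hepatocytes, and Slc23a2 (SVCT2) is the widely expressed one that loads most other cells. Oxidised ascorbate (dehydroascorbate) travels through glucose transporters and is reduced again inside the cell.

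Library totals were 16859076 to 18297907 counts for Sham-Ad lib, 17683302 to 19384076 for Sham-WM and 15122520 to 19055615 for VSG, and 13054 genes passed the filter on low counts, all 5 named genes among them. Groups were taken from the animal numbers that sample titles and library names share. A second label field pairs 8 of the 12 samples with the library of an animal from another group, and under that grouping edgeR called 0 genes in each of the 3 comparisons. The sample index in the library names ran in 1 unbroken block per group, so index order and treatment cannot be told apart.

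Slc23a2 (ENSMUSG00000027340) lies on mm10 chromosome 2, 132052496 to 132145108, on the minus strand. Its upstream sequence is shown because, of the 5, it differed most between the groups. RefSeq (build GRCm38.p6) holds 2 start sites for it, and the 250 bases before the distal one, chr2:132145321-132145570 on the minus strand, read 5′ to 3′ as follows, with capitals marking an overlapping pair of CCAAT matches, 1 on each strand.
Slc23a2 distal start: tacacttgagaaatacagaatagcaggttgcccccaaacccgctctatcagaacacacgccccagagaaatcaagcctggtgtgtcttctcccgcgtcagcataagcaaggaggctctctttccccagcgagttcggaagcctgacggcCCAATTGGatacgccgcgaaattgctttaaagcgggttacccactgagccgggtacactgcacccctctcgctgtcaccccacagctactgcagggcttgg
The window had 56% G+C against a median of 52.4% over all 32851 windows of 250 bases, and the CCAAT letters were found on either strand in 33.8% of those windows. The other letters searched on both strands did not match in it. They were TATAAA, found in 12.4% of all windows, GGGCGG, found in 32.7%, TGANTCA, found in 6.75%, TGACNNNGC, found in 10.2%, and GTTAAT, found in 6.43%. The 250 bases before the second start, chr2:132145109-132145358, overlap the printed run and had 78.8% G+C with 6 GGGCGG matches on either strand, 2 of which overlap each other. The Akr1a1 window, of 244 bases at chr4:116651681-116651924, had 46.7% G+C and no match to any of these letters. No window was at hand for Gulo, Rgn or Slc23a1.

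The synthesis genes were among the most abundant RNAs of these livers and the transporters were not. As normalised counts (CPM) scaled to exon length (RPKM, mean of the 12 livers), Rgn had 849 and ranked 64 of 13017 genes with a length, Gulo had 285 and ranked 178, and Akr1a1 had 137 and ranked 349. Slc23a1 had 26.3 RPKM and ranked 1462, and Slc23a2 had 3.98 RPKM and ranked 5564. The order Rgn, Gulo, Akr1a1, Slc23a1, Slc23a2 held in each of the 3 group means. The spread across livers ran the other way at its end. The highest liver had 2.98 times the lowest for Slc23a2, against 1.84 for Slc23a1, 1.72 for Akr1a1, 1.65 for Rgn and 1.57 for Gulo. The remaining family members were close to absent, with at most 2 counts in any liver for Slc23a3 and at most 1 for Slc23a4.

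**Figure D1:**
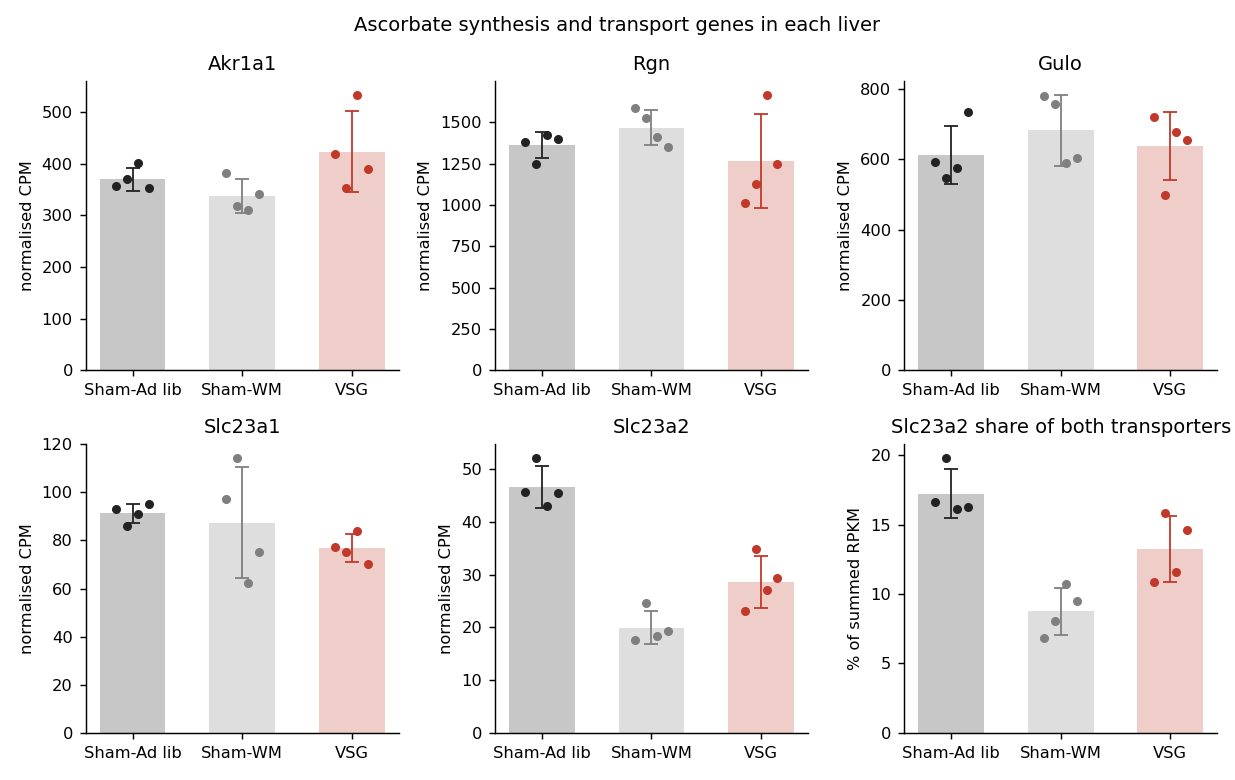
Level of each gene in each liver, as normalised CPM (vertical axes from 0), and, in the last panel, Slc23a2 as a percentage of the summed RPKM of both transporters. Points are single livers, bars are group means and error bars are SD (n = 4). The panels of Slc23a2 level and share show Sham-Ad lib livers, from 42.9 to 52.2 CPM and 16.1 to 19.8%, wholly above both other groups, while Slc23a1 in VSG sits just under the Sham-Ad lib range.

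None of the 3 enzymes of synthesis passed the test in any comparison. Akr1a1 (ENSMUSG00000028692, mm10 chromosome 4, 116636510 to 116651680) had 356, 371, 401 and 352 CPM in the Sham-Ad lib livers, in the order of the animals given above. It had 382, 318, 309 and 342 CPM in Sham-WM and 419, 352, 533 and 389 CPM in VSG. The groups overlapped, and the VSG liver of animal 11F stood above the rest. The means were 423 ± 78.1 CPM for VSG, 338 ± 32.4 for Sham-WM and 370.1 ± 22.4 for Sham-Ad lib (SD, n = 4).

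Akr1a1 came closest to a difference in VSG against Sham-WM, where it was 0.33 higher on the log2 scale (SE 0.134, 95% interval 0.04 to 0.61, 1.25-fold), with an adjusted p of 0.0854 by edgeR's quasi-likelihood test and a two-sided exact permutation p of 0.0571 (n = 4 against 4). Against Sham-Ad lib it differed by 0.19 in VSG (95% interval -0.09 to 0.48, edgeR adjusted p = 0.383) and by -0.13 in Sham-WM (-0.42 to 0.16, adjusted p = 0.628). With single animals left out, the difference between VSG and Sham-WM ran from 0.20 without animal 11F (edgeR adjusted p = 0.210) to 0.39 without animal 2F. Of these fits only the 1 without animal 8F passed, with an adjusted p of 0.0451 by edgeR.

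Rgn (ENSMUSG00000023070, chromosome X, 20549787 to 20562089) had 1382, 1249, 1425 and 1401 CPM in Sham-Ad lib. The Sham-WM livers had 1583, 1528, 1409 and 1348 CPM and the VSG livers 1011, 1128, 1666 and 1249 CPM. The VSG livers held both the lowest and the highest value of the 12, and their coefficient of variation was 22.6% against 5.80% in Sham-Ad lib and 7.34% in Sham-WM. The log2 difference was -0.11 in VSG (95% interval -0.44 to 0.22, edgeR adjusted p = 0.684) and 0.10 in Sham-WM (-0.23 to 0.44, adjusted p = 0.757), each against Sham-Ad lib. For VSG against Sham-WM it was -0.22 (-0.55 to 0.11, edgeR adjusted p = 0.312). That value moved in both directions with single VSG livers left out. Without animal 11F, the liver with the highest level, it was -0.38, with an adjusted p of 0.0424 by edgeR. Without animal 1F, the liver with the lowest level, it was -0.12, with an adjusted p of 0.590 by edgeR.

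Gulo (ENSMUSG00000034450, chromosome 14, 65986786 to 66009207), the enzyme of the last step, had 592, 547, 576 and 735 CPM in Sham-Ad lib. It had 782, 758, 589 and 603 CPM in Sham-WM and 720, 498, 679 and 654 CPM in VSG. All 3 groups overlapped, and the 3 group means of 613 ± 83.8, 683 ± 101 and 638 ± 97.2 CPM lay within 1 SD of each other. The log2 difference was 0.06 in VSG against Sham-Ad lib (95% interval -0.27 to 0.39, edgeR adjusted p = 0.843) and 0.16 in Sham-WM against Sham-Ad lib (-0.18 to 0.49, adjusted p = 0.615). It was -0.10 in VSG against Sham-WM (-0.43 to 0.23, edgeR adjusted p = 0.659). These intervals include 0 and leave room for a change of up to 0.49 on the log2 scale.

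Within each liver, the ratio of Rgn to Gulo in RPKM was 2.83 ± 0.650 in VSG, 3.05 ± 0.255 in Sham-WM and 3.17 ± 0.342 in Sham-Ad lib (SD, n = 4). The ratio of Gulo to Akr1a1 was 1.85 ± 0.261, 2.46 ± 0.323 and 2.02 ± 0.363 in the same order. For the second ratio every Sham-WM liver, at 2.14 to 2.90, was above every VSG liver, at 1.55 to 2.09. Among single genes, 26.2% had groups that did not overlap in that comparison, and neither Gulo nor Akr1a1 was among them. The ratios were not tested.

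Slc23a1 (ENSMUSG00000024354, chromosome 18, 35614604 to 35627244) was slightly lower in every VSG liver than in the Sham-Ad lib livers, though not past the threshold. Its levels were 93.2, 85.9, 90.9 and 94.99 CPM in Sham-Ad lib and 77.4, 75.3, 84.1 and 70.1 CPM in VSG. The highest VSG liver was below the lowest Sham-Ad lib liver. The Sham-WM livers had 97.3, 114.5, 62.4 and 75.2 CPM, the widest spread of the 3 groups, with a coefficient of variation of 26.5% against 4.31% in Sham-Ad lib and 7.56% in VSG.

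For VSG against Sham-Ad lib the log2 difference of Slc23a1 was -0.25 (SE 0.155, 95% interval -0.58 to 0.08) with an edgeR adjusted p of 0.337, and the exact permutation p was 0.0286, the smallest that 4 against 4 allows. Groups that did not overlap were found for 9.21% of all genes in that comparison. In Sham-WM against Sham-Ad lib the difference was -0.06 (-0.40 to 0.27, edgeR adjusted p = 0.866), and it turned to 0.070 without animal 15F and to 0.0046 without animal 16F. VSG against Sham-WM gave -0.19 (-0.52 to 0.15, edgeR adjusted p = 0.386). The gene overlaps Paip2 on the opposite strand, which had a mean of 1371 counts per liver, with no exon of one on an exon of the other. Whether counting used the strand is not given in the sources used here.

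Slc23a2 had the lowest level of the named genes, and it was chosen for being lower than Sham-Ad lib after both treatments. Its separation from Sham-Ad lib is therefore a description, and Slc23a1 also separated VSG from Sham-Ad lib. For Slc23a2, Sham-Ad lib livers had 45.5, 52.2, 42.9 and 45.4 CPM. Sham-WM livers had 17.5, 24.5, 18.4 and 19.3 CPM, and VSG livers had 23.1, 34.8, 27.1 and 29.4 CPM. Every treated liver was below every Sham-Ad lib liver, and the Sham-WM and VSG ranges met only where animal 1F (VSG) fell below animal 9F (Sham-WM). These levels rest on 723 to 972 counts per Sham-Ad lib liver, 343 to 479 per Sham-WM liver and 360 to 682 per VSG liver.

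Group means of Slc23a2 were 46.5 ± 3.97 CPM for the freely fed Sham-Ad lib livers, 28.6 ± 4.88 for VSG and 19.9 ± 3.15 for Sham-WM (SD, n = 4). Sham-WM was 2.33-fold lower than Sham-Ad lib (log2 -1.22, SE 0.141) and VSG was 1.62-fold lower (log2 -0.70, SE 0.139). Both comparisons use the same 4 Sham-Ad lib livers, and both differences chose the gene. In whole liver, fewer cells that hold an RNA and less of it per cell cannot be told apart.

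The comparison of VSG with Sham-WM was not used to choose the gene, although its livers were. Slc23a2 rose by 0.52 on the log2 scale in VSG relative to Sham-WM (SE 0.140, 95% interval 0.22 to 0.82, 1.44-fold), with an adjusted p of 0.0168 by edgeR over all 13054 genes. The exact permutation p was 0.0571 (two-sided, n = 4 against 4). The mean Slc23a2 level of the gastrectomised livers was above that of the food-restricted livers of the weight-matched group, with overlapping ranges. The difference lay between 0.40, without animal 8F, and 0.63, without animal 9F, when single livers were left out. Its adjusted p ended at 0.0532 by edgeR without animal 15F and at 0.185 with 2 RUVs factors.

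**Figure D2:**
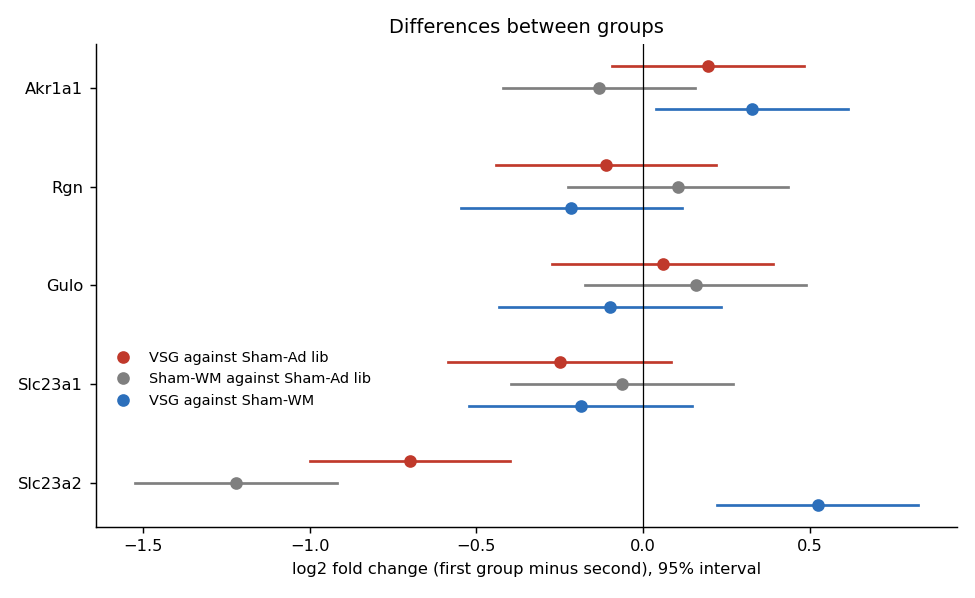
Log2 fold change (horizontal axis, first group minus second) with its 95% interval for each gene in the 3 comparisons, from 1 edgeR fit of 12 livers. The Slc23a2 values of -0.70 and -1.22 against Sham-Ad lib chose the gene and are shown as a description only. In VSG against Sham-WM the Slc23a2 interval runs from 0.22 to 0.82, and the Akr1a1 interval in that comparison (0.04 to 0.61) clears 0 before adjustment for all genes only.

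The counts of named genes called lay near the shares over all genes and are no result about the 5. In VSG against Sham-Ad lib, 0 of the 4 genes other than Slc23a2 were called, where edgeR called 0.467% of all genes higher and 0.283% lower. In Sham-WM against Sham-Ad lib, 0 of these 4 were called, with 3.53% of all genes higher and 3.45% lower, and with non-overlapping groups for 17.6% of genes. In VSG against Sham-WM, where 15.0% of all genes were called higher, 11.9% lower and 26.2% did not overlap, Slc23a2 was the 1 of 5 called and 0 of 5 had groups that did not overlap. At an unadjusted p under 0.05, 3149, 2814 and 5268 of all genes passed in the 3 comparisons in this order.

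The share of Slc23a2 in the transporter RNA differed in the same order as its level. Of the summed RPKM of Slc23a1 and Slc23a2, the latter made up 16.6%, 19.8%, 16.1% and 16.3% in the Sham-Ad lib livers. It made up 6.84%, 8.02%, 10.7% and 9.47% in Sham-WM and 10.8%, 15.9%, 11.6% and 14.6% in VSG. No treated liver reached the lowest Sham-Ad lib share, and the lowest VSG liver lay just above the highest Sham-WM liver. The group means were 17.2% ± 1.76, 8.76% ± 1.69 and 13.2% ± 2.38 (SD, n = 4), given with no test because the share contains the gene that was chosen.

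**Figure D3:**
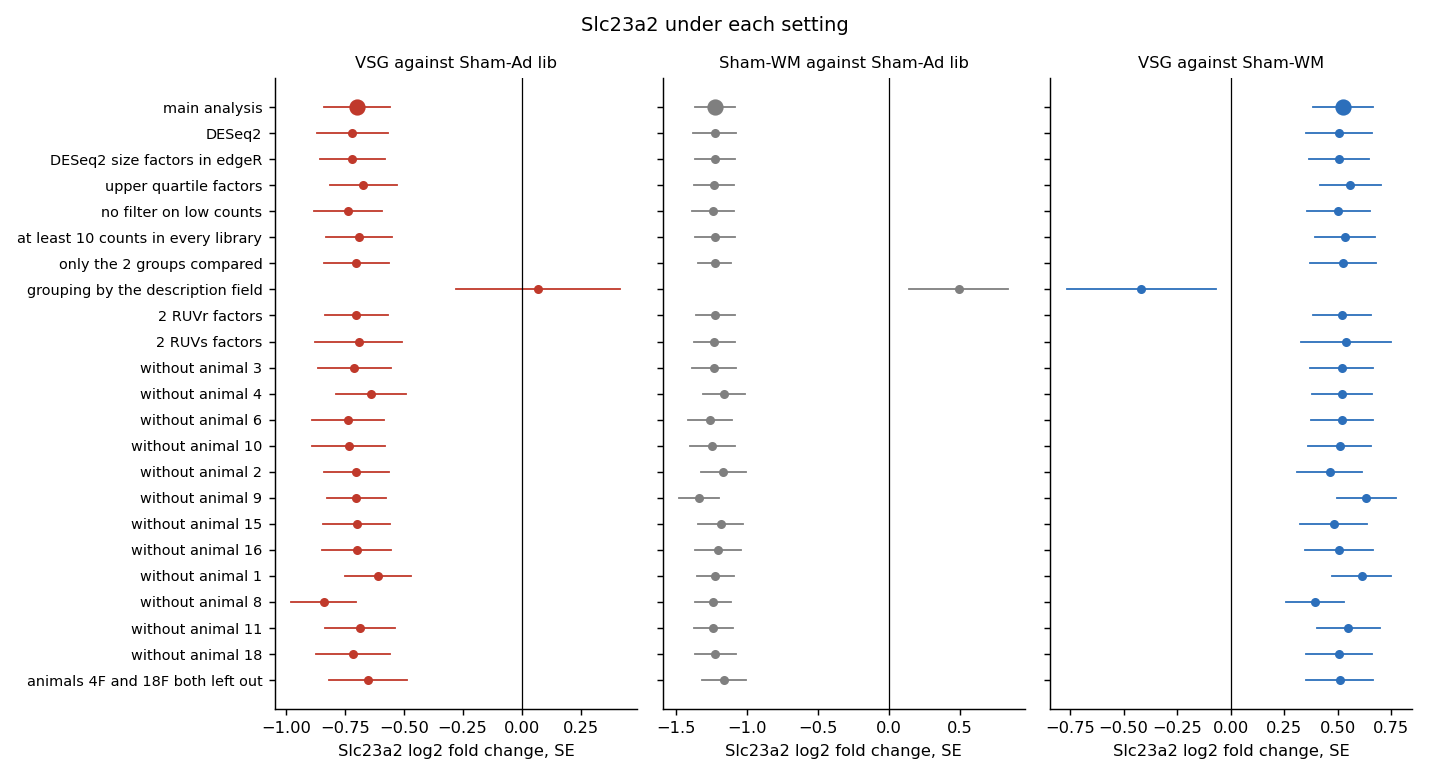
Log2 fold change of Slc23a2 with its SE (horizontal axes, which differ between the panels) under each way of processing the counts and with each animal left out. Sham-Ad lib animals are 3, 4, 6 and 10, Sham-WM animals 2, 9, 15 and 16, and VSG animals 1, 8, 11 and 18. All settings but the grouping by the second label field keep the direction of each panel, and under that grouping the values are 0.071, 0.49 and -0.42. The differences from Sham-Ad lib chose the gene, so their panels are a description only.

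Marker RNA of several cell types other than hepatocytes also differed between the groups, and its part in the values above was not tested. In VSG against Sham-WM, edgeR called 15.0% of all genes higher and 11.9% lower. It called 0.467% higher in VSG, and 3.53% higher and 3.45% lower in Sham-WM, each against Sham-Ad lib. All 8 hepatocyte markers passed the filter, and their summed level ran from 105847 to 123264 CPM over the Sham-Ad lib livers, 122771 to 148987 over the Sham-WM livers and 76414 to 121950 over the VSG livers. In VSG against Sham-WM, 2 of the 8 were lower. The 7 Kupffer cell markers summed to 136 to 437, 121 to 211 and 453 to 1293 CPM in the same order of groups, and 7 of 7 were higher in VSG than in Sham-WM and 2 higher than in Sham-Ad lib. The 6 neutrophil markers, of which 5 passed the filter, summed to 1.03 to 16.9, 2.51 to 3.11 and 23.9 to 694 CPM. Of these markers, 5 were higher in VSG than in Sham-WM and 4 higher than in Sham-Ad lib.

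Sums take every listed marker, and the counts in brackets are those that passed the filter. Stellate cell markers (7 of 7) summed to 392.4 to 519, 409 to 485 and 267 to 412 CPM. Of these, 3 were lower in VSG than in Sham-WM and 1 was higher in Sham-WM than in Sham-Ad lib. Endothelial markers (7 of 7) summed to 136 to 197, 155 to 233 and 133 to 227 CPM, with 1 lower in VSG than in Sham-WM, and cholangiocyte markers (5 of 6) to 39.3 to 73.4, 37.6 to 43.8 and 37.4 to 94.8 CPM. B and plasma cell markers (5 of 6) summed to 10.8 to 17.9, 8.50 to 25.8 and 35.4 to 99.96 CPM, with 3 higher in VSG than in Sham-WM and 1 higher than in Sham-Ad lib, and T and NK cell markers (5 of 6) to 2.11 to 3.68, 1.48 to 3.26 and 4.04 to 8.84 CPM, with 4 higher in VSG than in Sham-WM. For tissue that could come with a liver, 1 of 5 markers each of fat, kidney tubule and pancreatic acinar cells passed the filter, with Lep, Kap, Cpa1 and Pnlip at 0. The fat markers summed to 3.33 to 31.6, 1.94 to 4.23 and 1.25 to 3.84 CPM, in the same order of groups, and the 1 that passed was lower in Sham-WM than in Sham-Ad lib. The kidney markers summed to 0.270 to 1.07, 0.957 to 2.60 and 0.171 to 1.276 CPM and the pancreatic markers to 11.3 to 24.8, 16.2 to 22.8 and 11.8 to 37.1 CPM, with none called.

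Of 11 genes listed for glucuronate metabolism, not all of them upstream of Akr1a1, 10 were tested. None was called in VSG or Sham-WM against Sham-Ad lib. Over all genes, 0.467% were called higher and 0.283% lower in VSG, and 3.53% higher and 3.45% lower in Sham-WM. The count of 0 lay near these shares and is no result about the list. List medians were 0.0063 and -0.019 on the log2 scale against 0.028 and 0.00079 over all genes. In VSG against Sham-WM 1 rose, Akr1b3, the aldose reductase that turns glucose into sorbitol, with a list median of 0.074 against 0.028 and with 15.0% of all genes called higher and 11.9% lower. Akr1b3 had 11.6 ± 2.60 CPM in VSG, 7.06 ± 2.51 in Sham-WM and 6.21 ± 1.25 in Sham-Ad lib (SD, n = 4), a log2 difference of 0.71 between the first 2 (SE 0.244, edgeR adjusted p = 0.0462). VSG and Sham-WM livers overlapped. Against Sham-Ad lib, Akr1b3 was 0.89 higher in VSG (SE 0.246), not past the threshold (edgeR adjusted p = 0.0696). Those 2 groups did not overlap, which held for 9.21% of all genes. The call in VSG against Sham-WM was lost without any one of animals 1F, 3F, 6F, 8F, 9F, 10F, 11F, 15F or 16F, leaving 0 genes called. Ugdh, which makes UDP-glucuronate, had 119 ± 20.7 CPM in VSG, 122 ± 10.6 in Sham-WM and 136 ± 5.92 in Sham-Ad lib and passed no test.

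Of 14 genes listed for dehydroascorbate uptake and ascorbate recycling 13 were tested. In VSG against Sham-WM 2 rose and 3 fell, where 15.0% of all genes were called higher and 11.9% lower. The list median was 0.0044 against 0.028 over all genes. The count was 4 without animal 9F, 11F or 15F and 6 without animal 10F. The largest fall was that of Cyb5b, the mitochondrial outer membrane cytochrome b5 that passes electrons in the recycling of ascorbate. It had 301 ± 49.0 CPM in VSG, 660 ± 27.6 in Sham-WM and 511 ± 69.1 in Sham-Ad lib. VSG and Sham-WM did not overlap, and the log2 difference was -1.13 (SE 0.140, edgeR adjusted p = 0.000315).

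Txnrd1, a thioredoxin reductase that can reduce dehydroascorbate, had 118 ± 5.20 CPM in VSG and 153 ± 4.67 in Sham-WM, a log2 difference of -0.37 (SE 0.0890, edgeR adjusted p = 0.00952). Gclc, the catalytic subunit of the first enzyme of glutathione synthesis, had 232 ± 20.4 and 350.1 ± 45.0 CPM in the same 2 groups. The log2 difference was -0.59 (SE 0.151, edgeR adjusted p = 0.0130). In Sham-Ad lib Gclc had 243 ± 49.1 CPM. Against that group VSG differed by -0.069 (edgeR adjusted p = 0.806) and Sham-WM by 0.52 (edgeR adjusted p = 0.0532). For Txnrd1 and Gclc every VSG liver was below every Sham-WM liver. Gsto1, a glutathione transferase with dehydroascorbate reductase activity, was higher in VSG, at 92.7 ± 17.1 CPM, than in Sham-WM, at 64.7 ± 10.6. The log2 difference was 0.52 (SE 0.161, edgeR adjusted p = 0.0312), with overlapping groups. Sham-Ad lib lay between them, at 73.9 ± 12.3 CPM. Neither treatment was called against it (edgeR adjusted p = 0.230 for VSG and 0.545 for Sham-WM). Slc2a3 (GLUT3), a glucose transporter that also carries dehydroascorbate, had 2.55 ± 2.01 CPM in VSG and 0.328 ± 0.0438 in Sham-WM (log2 2.95, SE 0.587, edgeR adjusted p = 0.00398). It lies under the level set for naming and is named after its values were seen.

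Against Sham-Ad lib the same list gave 1 call in each comparison, where 0.283% of all genes were called lower in VSG and 3.53% higher in Sham-WM. Cyb5b fell in VSG by 0.76 on the log2 scale (SE 0.139, edgeR adjusted p = 0.0435), with groups that did not overlap and a list median of -0.054. Without any one of animals 1F, 2F, 3F, 6F, 9F, 10F, 15F or 16F, 0 genes of the list were called in that comparison, and without 4F, 11F or 18F there were 2. Txnrd1 rose in Sham-WM by 0.32 (SE 0.0890, edgeR adjusted p = 0.0470) from 122 ± 9.13 CPM in Sham-Ad lib, also without overlap, with a list median of 0.0063. That count was 0 without any one of animals 1F, 2F, 4F, 6F, 8F, 9F, 10F, 15F, 16F or 18F and 2 without 11F. Slc2a2 (GLUT2), the main glucose transporter of hepatocytes, had 394 ± 98.4 CPM in VSG, 405 ± 31.7 in Sham-WM and 543 ± 91.1 in Sham-Ad lib, with edgeR adjusted p-values of 0.144 and 0.186 against the latter.

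Of 21 listed oxygenases that use ascorbate as a reductant 17 were tested. In VSG against Sham-Ad lib none was called, where 0.467% of all genes were called higher and 0.283% lower, with a list median of 0.054 against 0.028 over all genes. In Sham-WM against Sham-Ad lib 1 rose, P4ha2, a catalytic subunit of collagen prolyl hydroxylase, from 3.40 ± 0.689 to 6.87 ± 1.37 CPM without overlap (log2 1.01, SE 0.230, edgeR adjusted p = 0.0194), where 3.53% of all genes were called higher. The list median was 0.076 against 0.00079 over all genes. The P4ha2 call was lost without any one of animals 2F, 3F, 10F or 15F, with 0 called. In VSG against Sham-WM 1 fell, Pam, which amidates secreted peptides, with 17.3 ± 5.46 CPM in VSG and 26.3 ± 3.76 in Sham-WM (log2 -0.60, SE 0.202, edgeR adjusted p = 0.0419), where 11.9% of all genes were called lower. The list median was -0.12 against 0.028 over all genes. The Pam groups overlapped, and the count was 0 without any one of animals 3F, 6F, 9F, 11F or 15F and 2 without 2F or 18F. Hpd, a liver dioxygenase of tyrosine breakdown, had 2260 CPM in VSG, 2213 in Sham-WM and 2328 in Sham-Ad lib and passed no test.

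**Figure D4:**
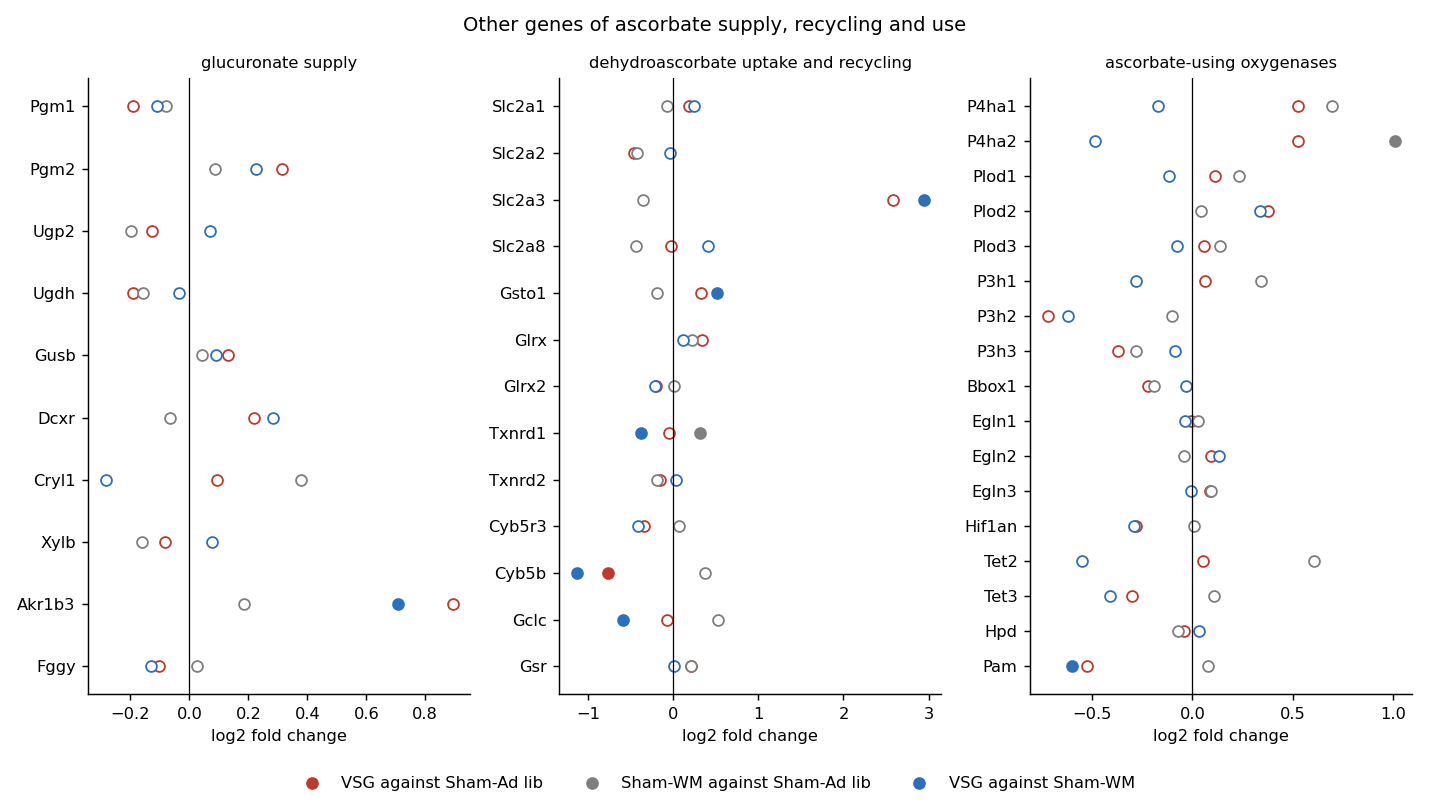
Log2 fold change (horizontal axes, which differ between the panels) of the other tested genes, in 3 comparisons marked by colour. The panels hold the lists of glucuronate metabolism, of dehydroascorbate uptake and recycling, and of ascorbate-using oxygenases. The panel headed glucuronate supply also holds genes that are not upstream of Akr1a1. Filled points passed an adjusted p of 0.05 by edgeR and open points did not; most genes lie near 0, and Cyb5b, at -0.76 and -1.13, is the gene filled in both comparisons of VSG.

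The genes whose levels most resembled that of each named gene over the 12 livers are given as a description, since group differences, depth and cell content are shared by all genes of a liver. Slc23a2 was matched most closely among 10824 genes by Atg2a, an autophagy lipid-transfer protein (r = 0.951), by the amino acid transporter Slc38a4 (r = 0.944) and by Crbn, a ubiquitin ligase substrate receptor (r = 0.941). Mean levels in VSG, Sham-WM and Sham-Ad lib were 43.8, 32.1 and 57.9 CPM for Atg2a and 1374, 1047 and 1808 CPM for Slc38a4, the same order of groups as Slc23a2. The closest genes to Slc23a1 were Tspan31, Pja1 and Ddx56 (r = 0.922, 0.916 and 0.886), and to Gulo they were Alg9, Pdap1 and Hspbp1 (r = 0.870, 0.839 and 0.815). For Rgn they were Aadac, Inmt and Acaa2 (r = 0.981, 0.957 and 0.936), and for Akr1a1 they were Vps29, Gtf2h5 and Coq3 (r = 0.984, 0.979 and 0.958). None of the 5 named genes was among the closest 3 of another, and between them r ran from -0.41 (Slc23a2 and Gulo) to 0.48 (Slc23a1 and Gulo).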

How the data were processed

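Poly(A) RNA of 12 frozen livers was made into stranded libraries and sequenced. Read alignment, by the authors, used TopHat2 2.1.1 against mm10, and counting per gene used featureCounts. The annotation release and strand setting are not given in the sources used here. The deposited values are whole-number counts, not normalised. Ensembl identifiers were given symbols, positions and exon lengths from GENCODE M21 (45229 of 46078 matched). Sequences are from RefSeq.

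Genes were kept by filterByExpr (minimum count 10, minimum total 15), which left 13054 genes and at least 99.88% of each library's counts. TMM factors ran from 0.879 to 1.04, and Spearman's rho between replicates from 0.963 to 0.992. One edgeR 4.0.16 quasi-likelihood model (R 4.3.3) was fitted to all 3 groups, and Benjamini-Hochberg adjustment ran over all genes, with a call at an adjusted p under 0.05. Groups do not overlap where every normalised CPM of one lies above every one of the other. Exact permutation tests were two-sided, with 0.0286 the smallest p for 4 against 4. RPKM was the TMM-normalised CPM per 1000 exon bases. Likeness was Pearson's r of log2 CPM (prior count 2) over tested genes whose mean log2 CPM reached 1.

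The 5 genes and all lists were chosen with earlier results of these data known. Named were all 5 genes in every library, from each list up to 4 genes called in any comparison (smallest adjusted p first, mean log2 CPM from 1), and the 3 genes most like each of the 5. Uncalled genes, and Slc2a3, were named after their values were seen. Alternatives were DESeq2 1.42.0, its size factors, upper quartile factors, no or a stricter filter, only the groups compared, the second label field, 2 RUVr or RUVs factors and leaving out each animal. The code was tested on simulated counts. A library's group was that of the sample whose title holds its animal number. The description field attaches each library to another sample, so no library was tied to 1 sample record.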

Additional observations from a re-analysis of the deposited data

How the results depend on the processing

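The 1 gene of the 5 called in each comparison was Slc23a2, which was chosen on its differences from Sham-Ad lib, so its counts in those comparisons are a description and support nothing. Grouping by the second label field gave 0 in each, with 0 of all genes called, and turned these log2 differences: Slc23a1 to 0.094 (VSG) and 0.21 (Sham-WM), Slc23a2 to 0.071 and 0.49, all against Sham-Ad lib, Gulo and Rgn to -0.13 each for Sham-WM against Sham-Ad lib, and for VSG against Sham-WM Slc23a2 to -0.42 and Gulo to 0.21. For VSG against Sham-Ad lib the count was 0 also with upper quartile factors, at least 10 counts in every library, only the 2 groups compared or 2 RUVs factors, and 0 to 1 with single animals left out, being 1 without 4F, 8F or 18F. For Sham-WM against Sham-Ad lib it was 1 to 1 with single animals left out, which again describes the chosen gene. For VSG against Sham-WM it was 2 with 2 RUVr factors (Slc23a2 and Akr1a1, the latter at an edgeR adjusted p of 0.0175), 0 with 2 RUVs factors, and 0 to 2 with single animals left out: 0 without 15F, and 2 without 8F or 11F. The cause was not tested. Gulo in VSG against Sham-Ad lib became -0.034 with 2 RUVs factors, ran from -0.0053 (without animal 1F) to 0.13 with single animals left out, and was -0.0057 without both 4F and 18F, a choice made after seeing the data. Slc23a1 in Sham-WM against Sham-Ad lib ran from -0.22 to 0.070 with single animals left out, being above 0 without 15F and, at 0.0046, without 16F.

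The count over all genes also moved with the processing. For VSG against Sham-Ad lib, 98 genes by edgeR became 1202 with DESeq2, 628 with no filter, 0 with the stricter filter or only 2 groups, 3027 with RUVr, 6 with RUVs, 1453 without 4F and 18F, and 0 to 1089 with single animals left out. For Sham-WM against Sham-Ad lib, 912 became 1445 with DESeq2, 1399 with only 2 groups, 2167 with RUVr, 1723 with RUVs and 424 to 1311 with single animals left out. For VSG against Sham-WM, 3509 became 5495 with RUVr, 518 with RUVs and 2196 to 3868 with single animals left out. Apart from the second label field, Slc23a2 stayed between -0.84 and -0.61 in VSG and between -1.34 and -1.16 in Sham-WM against Sham-Ad lib. These differences chose the gene on the same livers, so these ranges are a description and support nothing. No paired analysis was possible because the groups compared hold different mice and the labels give no pairing. Depth limits Slc23a2 least in Sham-Ad lib, with at least 723 counts per liver, and Slc23a3 and Slc23a4 could not be tested.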
